A study of Mus musculus with 5 samples.

Results

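Mpped1, Nts, Pantr1, Ppp1r14b and Nexmif are 5 genes whose RNA was far more abundant in a pool of newborn mouse cortex RNA than in a pool of adult mouse retina RNA. They were taken by symbol from the probe annotation, which gave each of them 1 probe, so 5 probes of 21446 and 5 genes of 8798 with a value on every array are described. The genes were chosen by their ratios on these same arrays. The ratios are therefore given as a description, with no test.

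A pair of RNA pools was compared, the retina of adult C57/B6 mice and the cortex of Swiss-Webster mice at postnatal day 1. Both pools were put on each of 5 Agilent two-colour arrays, with retina in the red dye Cy5 and cortex, the reference, in the green dye Cy3 every time. The arrays form 1 group of technical replicates, so every SD below is labelling and hybridisation error and holds no spread between animals. Tissue, age, strain and dye change together and cannot be told apart, and the age of the adult mice in weeks is not given in the sources used here. Each pool is bulk RNA, in which fewer cells of a type and less RNA per cell cannot be told apart.

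The deposited values were read as log10 ratios of retina over cortex. Base and direction are likely, from the limits at 2 and -2 and from the dyes and titles, and are not stated. A negative value thus means more RNA in the cortex pool, and reading the values the other way round would turn every sign. Of 31 listed retina markers 7 were measured, with rhodopsin not among them, and 6 were higher in retina, led by the photoreceptor cadherin Cdhr1, at a log2 ratio of 4.30 ± 0.05 (SD, n = 5) and the homeobox factor Otx2 at 3.42 ± 0.03. Of 26 listed genes of cortical neurons and their progenitors 15 were measured, of which 7 were lower and 2 higher, with Id2, an inhibitor of helix-loop-helix factors, at -2.86 ± 0.08. Among 17 measured markers of meninges, vessels, microglia, red cells, oligodendrocytes and, by Ttr alone, epithelium, 5 were lower and 2 higher. The pigment epithelium genes Rpe65, Best1 and Tyrp1 were listed but not measured. The lowest were the fibroblast matrix gene Postn at -1.86 ± 0.27 and the globin gene Hbb-b2 at -1.66 ± 0.07. Of other matrix genes Dcn was lower at -1.35 ± 0.21, while Col1a1, Col1a2 and Col3a1, at 0.52, -0.06 and -0.40, did not pass. The 2 higher were the vessel genes Flt1 at 1.44 ± 0.08 and Kdr at 1.16 ± 0.08, while Pecam1 at 0.14 and Cdh5 at -0.47 did not pass. The part of these other cell types in the ratios below was not tested. "Higher" and "lower" refer to a limma test of each gene against a minimum of 2-fold, with Benjamini-Hochberg adjustment over all 8798 genes and a threshold of 0.05, which called 3.83% of genes lower, 2.8% higher and 6.63% in either direction.

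The 5 genes belong to different kinds of molecule. Mpped1 encodes a protein with a metallophosphoesterase domain, a fold that holds metal ions and cleaves phosphate esters, and its task in neurons is little known. Nts encodes the precursor from which proteases cut the neuropeptides neurotensin and neuromedin N, which signal through G protein-coupled receptors. Pantr1 is a long noncoding RNA transcribed beside Pou3f3, a POU homeobox gene of the developing forebrain. Ppp1r14b encodes an inhibitor of protein phosphatase 1 of the same family as the smooth muscle inhibitor CPI-17, active when phosphorylated by kinases such as protein kinase C. Nexmif is an X-linked gene whose nuclear protein acts in neurite extension and neuronal migration, and its loss causes intellectual disability in humans.

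RefSeq promoter windows, from 250 bases before to 50 after an annotated start, were found for 4 of the 5 genes, all but Pantr1, and are shown because these genes all had low ratios while their starts look unlike one another. Mpped1 has 2 windows. The windows are on build GRCm38.p6, run 5′ to 3′ on the strand of the gene, and carry in capitals each E-box (CANNTG, the core bound by helix-loop-helix factors) and each AP-1 motif (TGACTCA or its reverse complement TGAGTCA). The windows were also searched on both strands for the octamer ATGCAAAT, the cyclic AMP element TGACGTCA and TATAAA. The E-box reads CANNTG on either strand, and no match overlapped another.
Nts, chr10:102490369-102490668, minus strand: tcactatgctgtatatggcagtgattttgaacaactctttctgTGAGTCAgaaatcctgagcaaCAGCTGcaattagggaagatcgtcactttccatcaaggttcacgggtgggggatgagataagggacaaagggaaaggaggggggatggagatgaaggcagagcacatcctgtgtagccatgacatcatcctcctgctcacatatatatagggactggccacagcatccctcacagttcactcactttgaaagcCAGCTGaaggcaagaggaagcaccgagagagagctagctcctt
Mpped1, first window, chr15:83779773-83780072, plus strand: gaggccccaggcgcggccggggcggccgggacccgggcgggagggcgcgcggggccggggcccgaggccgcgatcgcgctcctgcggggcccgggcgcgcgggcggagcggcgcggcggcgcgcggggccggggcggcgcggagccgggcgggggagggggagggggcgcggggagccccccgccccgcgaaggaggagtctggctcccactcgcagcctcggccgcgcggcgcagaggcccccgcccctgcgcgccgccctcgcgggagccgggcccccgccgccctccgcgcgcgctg
Mpped1, second window, chr15:83784579-83784878, plus strand: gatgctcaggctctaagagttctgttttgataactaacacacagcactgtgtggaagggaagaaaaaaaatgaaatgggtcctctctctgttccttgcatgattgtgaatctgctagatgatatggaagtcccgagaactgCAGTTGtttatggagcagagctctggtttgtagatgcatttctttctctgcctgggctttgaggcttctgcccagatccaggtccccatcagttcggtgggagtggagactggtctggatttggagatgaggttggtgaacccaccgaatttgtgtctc
Ppp1r14b, chr19:6974798-6975097, plus strand: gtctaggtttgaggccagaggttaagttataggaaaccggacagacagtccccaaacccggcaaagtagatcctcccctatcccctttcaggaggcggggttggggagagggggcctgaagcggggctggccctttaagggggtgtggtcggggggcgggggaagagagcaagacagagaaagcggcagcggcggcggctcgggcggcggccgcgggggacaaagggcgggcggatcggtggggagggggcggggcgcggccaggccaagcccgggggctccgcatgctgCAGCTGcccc
Nexmif, chrX:104201135-104201434, minus strand: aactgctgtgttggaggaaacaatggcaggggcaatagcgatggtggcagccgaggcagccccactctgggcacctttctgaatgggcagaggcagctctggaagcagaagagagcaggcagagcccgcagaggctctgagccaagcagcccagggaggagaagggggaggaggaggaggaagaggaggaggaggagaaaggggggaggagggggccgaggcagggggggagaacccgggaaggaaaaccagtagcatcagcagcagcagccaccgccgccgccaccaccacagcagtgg

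Base composition differed widely among these windows. G and C made up 89.3% of the first Mpped1 window, which held 59 CG pairs, and 47.3% of the second, which held 3. The Nts window was 49% G and C with 3 CG pairs, that of Ppp1r14b 69.3% with 23 and that of Nexmif 64.3% with 8. Over all 32851 windows in the table the median was 52.7% G and C with 7 CG pairs. So the first Mpped1 window lay at the GC-rich end, and those of Nts and the second Mpped1 start lay below the median.

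No motif was shared by all 5 windows. The Nts window held 2 E-boxes, at bases -186 and 8 from the start. That of Ppp1r14b held 1, at base 41, and the second Mpped1 window 1, at base -109. The first Mpped1 window and that of Nexmif held none of the motifs searched. An E-box was found in 72.3% of all windows. Both E-boxes of Nts and the one of Ppp1r14b read CAGCTG, a form singled out after the windows were seen, which 16.3% of all windows hold. The AP-1 match of Nts lay at base -207, and 5.2% of all windows have one. The octamer (1.74% of all windows), the cyclic AMP element (1.79%) and TATAAA (13.6%) were in none of the 5.

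On means over the probes of each gene, the measure used for all ranks here, Mpped1 had the lowest ratio of all 8798 genes. It held that place on each of the 5 arrays. Its deposited log10 ratio was -1.33, -1.26, -1.29, -1.31 and -1.35 on arrays 1 to 5. The mean was -1.31 ± 0.036 (SD, n = 5), a log2 ratio of -4.35 ± 0.12, or 20.4-fold less RNA in the retina pool. From array to array the fold ran between 18.2 and 22.6, with array 2 nearest to 0 and array 5 farthest. The next gene, Dcx, lay 0.36 log2 higher on the mean of its 2 probes. The lower Dcx probe alone read -4.61, below Mpped1, so the first place depends on averaging probes. No Mpped1 value, nor any value of the other 4 genes, lay at the limit of the deposited scale, and none was an exact 0.

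Nts, the neuropeptide gene, ranked 4 from the bottom. Its deposited log10 ratio was -1.13, -1.09, -1.12, -1.09 and -1.13 on arrays 1 to 5. The mean log2 ratio was -3.69 ± 0.06 (SD, n = 5), or 12.9-fold less RNA in retina, with folds between 12.3 and 13.5. On single arrays it ranked between 4 and 6. Arrays 2 and 4 read close together at the upper end, and arrays 1 and 5 at the lower.

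Pantr1 was the only noncoding RNA of the 5. It read -1.04, -1.01, -1.03, -1.02 and -1.08 on the deposited log10 scale on arrays 1 to 5. Its mean log2 ratio was -3.44 ± 0.09 (SD, n = 5), a 10.8-fold lower level in the retina pool. The first 4 arrays lay between -3.45 and -3.34 log2 and array 5 at -3.59. Without array 5 its SD would be 0.045 log2, so much of its spread came from that array.

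Ppp1r14b, the phosphatase inhibitor gene, had nearly the same ratio as Pantr1, and on the deposited scale the smallest spread of the 5. With all arrays on 1 scale Nexmif had the smallest SD, and with the local correction described below Nts had. Deposited log10 ratios were -1.03, -1.02, -1.03, -1.03 and -1.04 on arrays 1 to 5. The mean log2 ratio was -3.42 ± 0.03 (SD, n = 5), or 10.7-fold, and the fold stayed between 10.4 and 11.01.

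Nexmif had the ratio nearest to 0 among the 5 genes. Its deposited log10 values were -0.923, -0.918, -0.916, -0.883 and -0.939 on arrays 1 to 5. The mean log2 ratio was -3.04 ± 0.07 (SD, n = 5), or 8.23-fold less RNA in retina. Array 4 stood nearest to 0, at -2.93 log2, and array 5 farthest, at -3.12. Without array 4 the SD of Nexmif would be 0.035 log2.

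**Figure D1:**
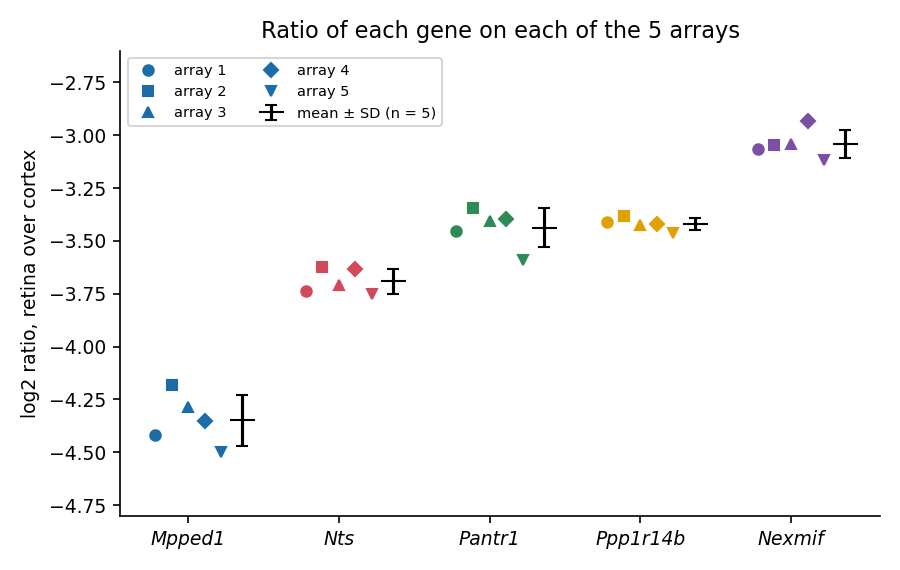
Log2 ratio of retina over cortex (vertical axis) of 5 genes (horizontal axis) on each of 5 arrays, 1 marker shape per array, with the mean and SD in black. Mpped1 sits lowest, between -4.50 and -4.18, and only Pantr1 and Ppp1r14b overlap.

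The order of the ratios was Mpped1, Nts, Pantr1, Ppp1r14b and Nexmif, from lowest to highest. The ranges over arrays of Mpped1 and Nts did not overlap, and Nts lay 0.66 ± 0.08 log2 higher, on 5 of 5 arrays. Pantr1 lay 0.25 ± 0.06 above Nts, again on every array and with ranges apart. Pantr1 and Ppp1r14b did not differ beyond their spread: the difference of their log2 ratios was 0.02 ± 0.07, and Ppp1r14b was the higher of them on 2 of 5 arrays. Nexmif lay 0.38 ± 0.06 log2 above Ppp1r14b on every array. These are differences between ratios, and say nothing of which gene has more RNA within a tissue.

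Few genes lay as low as these. A mean at or below that of Nexmif was reached by 11 genes, or 0.125% of those measured. The other 6 were Dcx, Fnbp1l, Tiam2, Enc1, Gap43 and Chl1, named here after their values were seen. The gene just above Nexmif in the ranking was Fut9, at -2.97 ± 0.07 log2.

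The genes most like each of the 5 were found by the root mean square difference of their log2 ratios over the 5 arrays, with the 5 themselves left out of the search. Pantr1 and Ppp1r14b lay closer to each other, at 0.064, than to any gene found. With 1 contrast and arrays of the same pools, this measure mainly finds genes of the same mean ratio. Nearest to Mpped1 was Dcx, which binds microtubules in migrating neurons, at a distance of 0.37, followed by Fnbp1l, an actin regulator that binds Cdc42, at 0.48. Dcx has 2 probes, which read -4.61 and -3.37. Tiam2, an exchange factor for Rac, was nearest to Nts, at 0.088, and Fnbp1l came next at 0.18. For both Pantr1 and Ppp1r14b the nearest gene outside the 5 was Enc1, an actin-binding kelch protein, at 0.15 and 0.12, followed by Tiam2 at 0.18 and 0.21. Nexmif was closest to Fut9, a fucosyltransferase that makes the Lewis X sugar, at 0.11, and to Mex3a, an RNA-binding protein, at 0.14.

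The spread of the 5 genes between arrays lay near or below the median of named probes for Pantr1, Nexmif and Nts, above it for Mpped1 and far below it for Ppp1r14b, on the deposited scale. The SD of Mpped1, 0.12 log2, was above that of 66.2% of 11500 named probes, whose median was 0.091. The SD of Pantr1 was above that of 51.3%, of Nexmif 32.2%, of Nts 25.9% and of Ppp1r14b 4.07%. Among 38 named probes with a mean as far from 0 as that of Ppp1r14b, within 0.5 log2 and on either side, 1 had a smaller SD. With the deviation of the 40 nearest probe numbers taken off, the SD of Ppp1r14b would be 0.076 in place of 0.028. For Mpped1 there were 5 such probes, and 4 had a smaller SD.

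**Figure D2:**
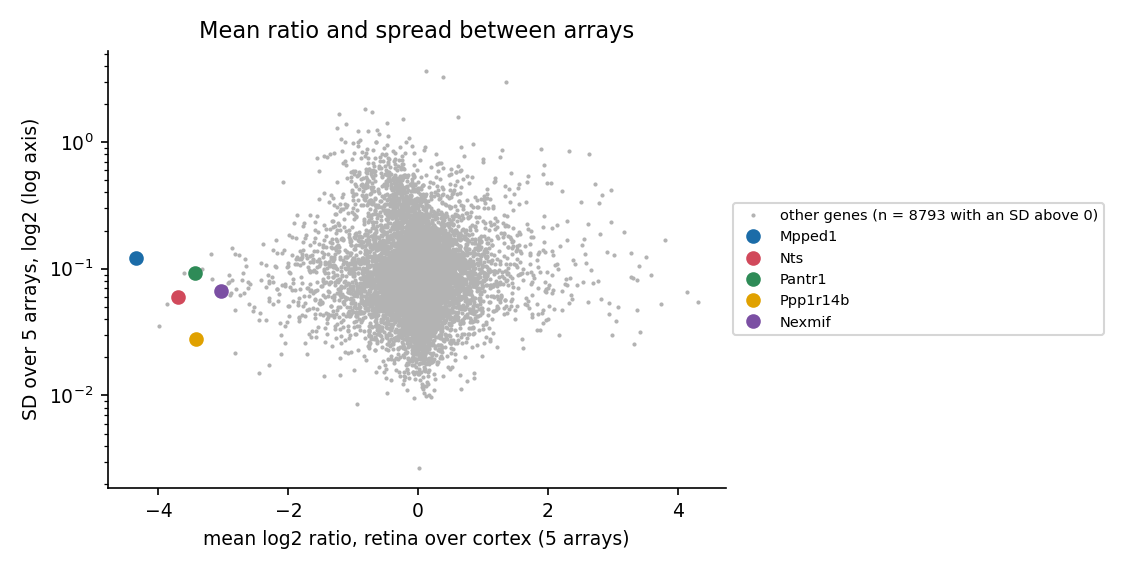
SD over 5 arrays (vertical log axis, log2 units) against the mean log2 ratio of retina over cortex (horizontal axis), with 1 grey point per gene and the 5 genes in colour. Mpped1 is the leftmost point of all, at -4.35, and Ppp1r14b lies lowest of the 5, with an SD of 0.028.

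As deposited, all 5 genes had their lowest ratio on array 5. There Mpped1 and Pantr1 each lay 0.15 log2 below their own means (deviation -0.15), Nexmif stood at -0.08, Nts at -0.06 and Ppp1r14b at -0.04. The highest value came from array 2 for Mpped1 (0.17 above its mean), Pantr1 (0.09), Nts (0.07) and Ppp1r14b (0.04), and from array 4 for Nexmif (0.11). Of 74 other genes with a mean below -2, 28.4% were lowest on array 5 and 43.2% on array 1, and their median deviation on array 5 was 0.0015. After each array was put on the same median absolute deviation, array 3 was the lowest for all 5 genes, so the order of the arrays depends on their scale. With the local correction Nts and Ppp1r14b were lowest on array 1, and Ppp1r14b lay above its mean on array 5, by 0.0051.

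**Figure D3:**
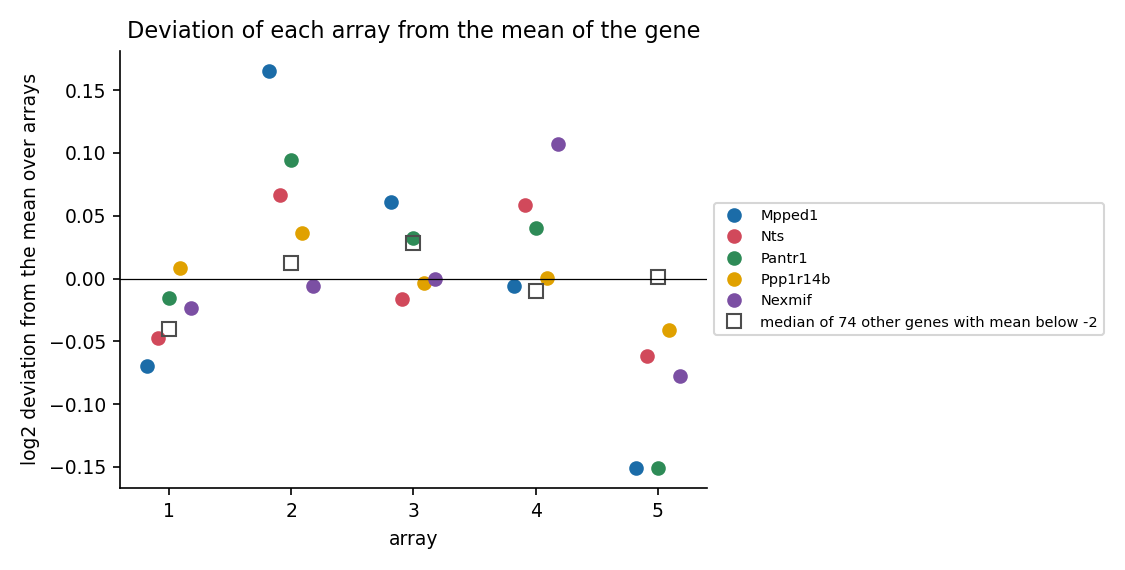
Deviation in log2 units from the mean over arrays (vertical axis) on each of 5 arrays (horizontal axis) for the 5 genes (filled points) and the median of 74 other genes with a mean below -2 (open squares). All 5 filled points lie below 0 on array 5, down to -0.15, and the open square lies near 0.

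Probes around the 5 on the array had ratios much nearer to 0. The layout of the arrays was not used here, so the probe number stands in for position. Of the 20 or 40 nearest probe numbers, only those with a value on all 5 arrays were used. The median log2 ratio of the 20 nearest probe numbers was -0.32 around Mpped1, 0.12 around Nts, 0.13 around Pantr1, -0.13 around Ppp1r14b and 0.08 around Nexmif. The lowest single probe in these 5 stretches read -1.59, beside Nexmif. Around Mpped1 the 40 nearest probes read 0.18 log2 below their own means on array 2 (median deviation -0.18), where Mpped1 itself read 0.17 above its mean. With that local deviation taken off, the SD of Mpped1 would be 0.22 log2.

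None of the measured relatives of Mpped1 had a ratio near its own. On means over probes Mpped1 was the lowest of all 8798 genes, so this says nothing particular of the relatives. Of 11 listed genes of the metallophosphoesterase fold 7 were measured, of which 0 passed limma's 2-fold test and 0 had an unadjusted p below 0.05. For 7 genes this is near the 6.63% of all genes called. Their median log2 ratio was -0.01, where the median of all genes was -0.0048. The farthest from 0 was Smpdl3a, a sphingomyelinase-like phosphodiesterase, at -0.63 ± 0.14. The retromer subunit gene Vps29 stood at -0.33 ± 0.06, and Adprm, an ADP-ribose hydrolase, at 0.52 ± 0.04. Mpped2, the closest relative, had no named probe.

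For Nts, the measured genes of reception, processing and breakdown had means on both sides of 0, and only 1 of 8 passed. Ntsr1, its main G protein-coupled receptor, stood at 0.01 ± 0.06 log2. Sortilin, Sort1, a sorting receptor that binds neurotensin, read 0.47 ± 0.04, and Cpe, the carboxypeptidase that trims peptide hormones, 1.02 ± 0.14. The precursor-cleaving protease gene Pcsk5 read -0.67 ± 0.11, and Thop1, a peptidase that cleaves neurotensin, -0.38 ± 0.42. Of 8 measured genes in this list, 1 was lower and 0 were higher, or 12.5%, against 6.63% of all genes called, so the share rests on a single gene. The list median was 0.01. The lower one was Nln, neurolysin, a metallopeptidase that cleaves neurotensin, at -1.29 ± 0.10 or 2.45-fold (limma adjusted p = 0.0041). Its 2 probes stood at -1.59 and -0.996, and the lower one alone did not pass, with a limma adjusted p of 0.066.

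Other peptide genes were sparsely measured. Of 37 listed genes for peptides, granins and their relatives 7 were measured, of which 0 were lower and 1 was higher, where 3.83% of all genes were lower and 2.8% higher, and the list median was -0.07. The higher one was Scg2, secretogranin II of dense-core vesicles, at 1.35 ± 0.10 or 2.54-fold (limma adjusted p = 0.0014). Trh, the precursor of thyrotropin-releasing hormone, read -0.16 ± 0.07, and Chga, chromogranin A, 0.28 ± 0.53. The SD of Chga exceeds its mean.

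No measured partner of Ppp1r14b passed, nor any gene of the myosin branch, on means over probes. Of 15 measured subunits and inhibitors of protein phosphatase 1, 0 passed limma's 2-fold test and 0 had an unadjusted p below 0.05. For so few genes this is near the 6.63% of all genes called, and says nothing particular of these partners. Their median log2 ratio was -0.06, within a range from -0.74 to 0.88. Phactr2, which binds actin and the phosphatase, was the farthest from 0, at 0.88 ± 0.08. The catalytic subunits were close to 0, with Ppp1ca at -0.32 ± 0.07 and Ppp1cb at -0.04 ± 0.05. The family members Ppp1r14a, Ppp1r14c and Ppp1r14d had no named probe with a value.

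Among 19 measured genes of myosin phosphatase, its upstream kinases and non-muscle myosin, 0 passed limma's 2-fold test and 1 had an unadjusted p below 0.05. With 6.63% of all genes called, 0 of 19 is near that share and says nothing particular of this list. That list's median was -0.06 log2. Mylk, the myosin light chain kinase, read 1.11 ± 0.12 (limma adjusted p = 0.32). The targeting subunit Ppp1r12a, which holds the phosphatase on myosin, stood at 0.23 ± 0.04, and Rock1, a kinase that inhibits it, at 0.09 ± 0.06. Prkcb, a protein kinase C gene, read -1.03 ± 0.04 over 3 probes that ran from -1.58 to -0.09. With its middle probe alone it passed, at -1.42 (limma adjusted p = 0.00014).

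The low ratio of Pantr1 could not be set beside that of Pou3f3, which had no named probe. Of the class III POU factors 1 was measured, Pou3f1, at 0.08 ± 0.10 log2, and it did not pass. Other long noncoding RNAs were mixed. Of 39 listed, 15 were measured, of which 2 were lower and 1 was higher, or 20% against 6.63% of all genes called, and the list median was -0.25. Meg3, an imprinted noncoding RNA, was lower at -1.57 ± 0.03 or 2.97-fold (limma adjusted p = 6.3e-06). Rian, from the same imprinted cluster, was lower at -1.31 ± 0.09 (limma adjusted p = 0.0022). Mir17hg, host of a microRNA cluster, was higher at 1.28 ± 0.06 (limma adjusted p = 0.00089).

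The probes of the lower noncoding RNAs disagreed. The 8 probes of Meg3 had means from -2.11 to -0.29, and the 3 of Rian from -2.01 to 0.00. Pantr1 itself had a single probe, so no such comparison can be made for it, and the same holds for the other 4 genes.

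Among listed genes of X-linked intellectual disability other than Nexmif, which was itself chosen for its low ratio, 3 were lower in retina. Of 52 listed, 28 were measured, of which 3 were lower, 0 were higher and 25 did not pass. The lower ones made up 10.7%, against 3.83% of all genes called lower, a share that rests on 3 genes. A mean below 0 was found for 20 of the 28, where the median of all genes was -0.0048. The list median was -0.27 log2. Dcx, also nearest to Mpped1 in ratio, was the lowest at -3.99 ± 0.04 or 15.9-fold (limma adjusted p = 3.4e-08). The protocadherin gene Pcdh19 followed at -1.94 ± 0.07 or 3.85-fold (limma adjusted p = 2.8e-06), with probes at -2.47 and -1.42. Phf6, a chromatin-associated zinc finger gene, was lower at -1.23 ± 0.08 (limma adjusted p = 0.0067). The synaptic adhesion gene Nlgn3 had a mean of -1.25 ± 0.20 and did not pass (limma adjusted p = 0.11). Those that did not pass ran from Nlgn3 to Slc6a8, the creatine transporter gene, at 0.63 ± 0.07. The glutamate receptor gene Gria3 stood at -0.88 ± 0.12, and Fmr1, which encodes an RNA-binding protein of synapses, at -0.58 ± 0.20.

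**Figure D4:**
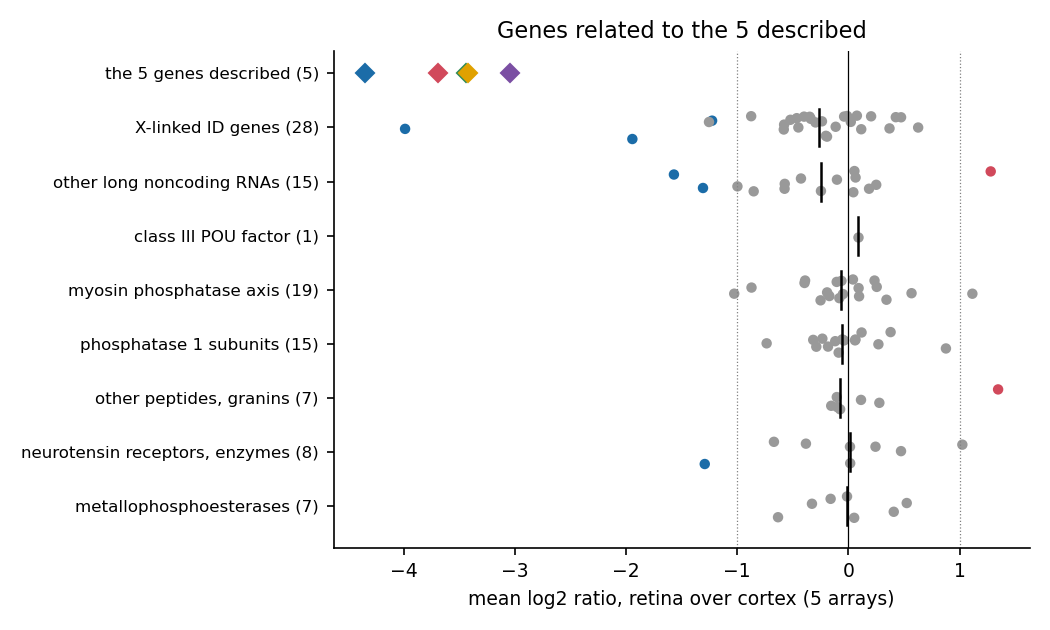
Mean log2 ratio of retina over cortex over 5 arrays (horizontal axis) of the genes in 8 related lists and of the 5 genes described (rows, with the number of measured genes), where blue points passed the 2-fold test as lower, red as higher, grey did not pass, and black bars are list medians. The 5 diamonds lie between -4.35 and -3.04, and of the related genes only Dcx, at -3.99, lies in that range.

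Few genes close to the 5 along the chromosome were measured. In the RefSeq gene order of assembly GRCm38.p6, the 5 places on each side of each gene held 50 genes, of which 7 were measured. Of these 7, 0 passed limma's 2-fold test and 0 had an unadjusted p below 0.05, which is near the 6.63% of all genes called and says nothing particular of these neighbours. Their log2 ratios ran from -0.79 to 0.17, with a median of -0.09. Ppp1r14b had 4 measured neighbours there, among them Plcb3, a phospholipase C gene, at -0.09 ± 0.09, and Vegfb, a growth factor gene, at 0.17 ± 0.03. Rassf9, the first gene after Nts, stood at -0.22 ± 0.10, and Scube1, the nearest measured gene before Mpped1, at -0.14 ± 0.06.

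The other nearest measured genes lay farther off and none of them passed limma's 2-fold test. Samm50, of the mitochondrial outer membrane, was 14 places after Mpped1 and read -0.15 ± 0.16. On the far side of Nts, 4930430F08Rik stood at 0.25 ± 0.10, 7 places away. Pantr1 had Tmem182 at 0.11 ± 0.06, 14 places before it, and the mitochondrial ribosome gene Mrps9 at -0.22 ± 0.33, 6 places after. Nexmif had no measured gene within 5 places, and Xist, the noncoding RNA of X inactivation, stood 22 places before it at -0.43 ± 0.05, with Pbdc1 18 places after at 0.10 ± 0.05. All 10 nearest measured genes had a limma adjusted p of 1.

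Within 20 places on each side, a window chosen after the first was seen, 36 genes were measured, of which 2 were lower and 1 higher, again near the share over all genes, 6.63%. The median of these 36 was 0.02 log2. Slc6a15, an amino acid transporter gene 8 places after Nts, was lower at -1.74 ± 0.03. Fhl2, a LIM domain gene 15 places after Pantr1, was lower at -1.38 ± 0.11. Pacsin2, an endocytosis gene 14 places before Mpped1, was higher at 3.08 ± 0.05. These 3 passed limma's 2-fold test, with adjusted p-values of 1.7e-06, 0.0017 and 8.8e-08, and are named after their values were seen.

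**Figure D5:**
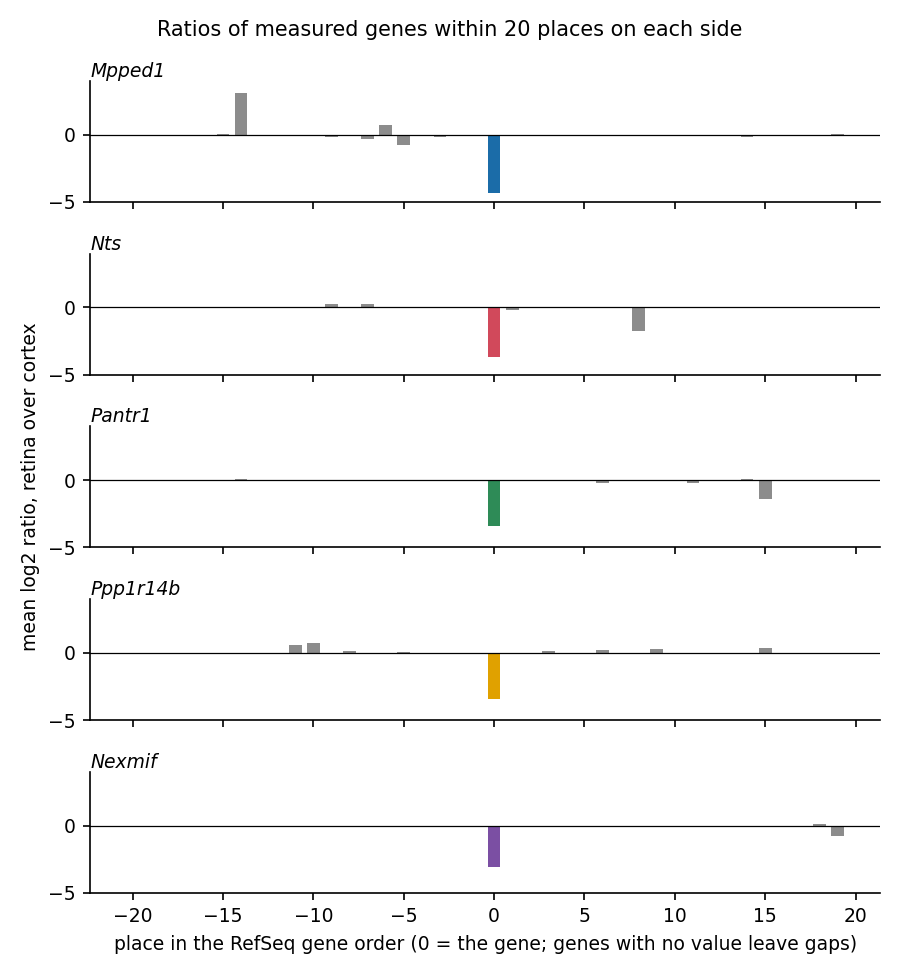
Mean log2 ratio of retina over cortex (vertical axis, bars from 0) of measured genes within 20 places on each side of each of the 5 genes in the RefSeq gene order (horizontal axis, the gene itself in colour at 0). The coloured bars reach -4.35 to -3.04, while the lowest neighbour, 8 places after Nts, reaches -1.74 and the highest, 14 places before Mpped1, 3.08.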

How the data were processed

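RNA of 2 pools was hybridised to 5 two-colour arrays. The authors deposited 1 column per array with signed values for 21446 probes, read here as log10 ratios. The sources used here do not say how spots were scanned, corrected, dye-normalized and filtered. The deposited columns were centred by an unknown method, with medians of 0 on 4 arrays and -7.32e-05 on array 5. Without spot intensities, which were not used here, the signal of each spot over its background is not known. Precision is limited by the 5 arrays.

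A factor of 3.32 turned them into log2 ratios, and an exact 0 was read as no value. Of 11813 probes with 1 gene symbol, 11782 matched RefSeq (GRCm38.p6) by gene identifier. Probes lacking a value on any array were left out, and the rest were averaged per gene. limma version 3.58.1 in R version 4.3.3 fitted an intercept and tested it against a log2 ratio of 1 with treat, two-sided. The fit was tested on simulated data. P-values measure error between arrays of the same pools. The 5 genes and all lists were chosen with earlier results of these data known. By rule, the text names those 5, the 2 nearest genes to each, the nearest measured gene on each side, and per list the 2 farthest genes that passed, or the 1 farthest from 0 where none did. Further genes are examples chosen after their values were seen. Alternatives covered centring, scale, exact 0 values, missing values, the probe rule, minimum fold, weights, prior, log base and each array left out.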

Additional observations from a re-analysis of the deposited data

Results flagged for a closer look

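The 5 genes and the 31 others named by rule, 36 in all, were checked, and the genes named as examples were not. Of these 36, 3 had 1 array far from the other 4, and chance gives about 5% of such sets. Nln, the neurolysin gene, read -1.11 log2 on array 2 and between -1.35 and -1.31 on the others. Samm50, a neighbour of Mpped1, read -0.43 on array 2 and between -0.12 and -0.05 elsewhere. Scg2, the secretogranin gene, read 1.51 on array 5, against 1.28 to 1.33 on the other arrays. None of the 5 genes Mpped1, Nts, Pantr1, Ppp1r14b and Nexmif had such an array.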

How the results depend on the processing

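Each array carries both pools, so each ratio already compares the pools within an array. The arrays form 1 group with no further pairing. Leaving out 1 array at a time put Mpped1 between -4.39 and -4.31 log2, Nts between -3.71 and -3.68, Pantr1 between -3.46 and -3.40, Ppp1r14b between -3.43 and -3.41 and Nexmif between -3.07 and -3.02. With 4 arrays the SD ran from 0.0901 to 0.140 for Mpped1, 0.0535 to 0.0677 for Nts, 0.0451 to 0.107 for Pantr1, 0.0179 to 0.0320 for Ppp1r14b and 0.0351 to 0.0776 for Nexmif, the lowest of Pantr1 and Ppp1r14b without array 5 and of Nexmif without array 4. Putting all arrays on 1 scale raised the SD to 0.425, 0.371, 0.335, 0.312 and 0.3005 in the same order. The correction by the 40 nearest probe numbers, chosen after seeing the data, moved Ppp1r14b to -3.45 log2, and the SD of Mpped1, Nts and Ppp1r14b to 0.216, 0.0340 and 0.0762. A minimum of 1.5-fold gave 1408 genes in place of 583, and reading the deposited values as log2 gave 7. With the median probe, 0 neurotensin genes and 1 of the myosin list (Prkcb) passed limma's 2-fold test, and Nln stood at -1.59. Every other count of passes, including those with array weights and with the robust prior, was within 1.5 times the one given above. Of the other values of the 31 further genes named by rule, 340 kept their call. Among them was Dcx, which with the median probe stood at -4.61, below Mpped1 at -4.35.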

Other observations

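A pair of genes on the list for cortical neurons and their progenitors were higher in retina. Neurod1, a helix-loop-helix factor known also from photoreceptors, was higher in retina at 2.78 ± 0.33 log2 (limma adjusted p = 9.5e-05), and the nuclear receptor gene Rorb, likewise known from photoreceptors, at 1.72 ± 0.11 (limma adjusted p = 5.3e-05). Neurod6, of the same family as Neurod1, was lower at -2.69 ± 0.09. The BAF complex partner Bcl11a was lower at -2.44 ± 0.04, and Bcl11b at -1.47 ± 0.04 with probes at -2.06 and -0.89. Rorb, Neurod6, Bcl11a and Bcl11b were chosen as examples after their values were seen.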
